A study of Drosophila melanogaster with 12 samples.

Results

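The comparison described here set whole guts in which Hey had been depleted from enterocytes (ECs) against purified control enteroblasts (EBs), and asked what still sets the Hey-depleted gut apart from progenitors. Its members were chosen by their labels, 3 arrays of Hey RNAi guts and 3 arrays of control EBs, 6 of the 12 arrays of the series. RNA levels of Drosophila melanogaster females were measured on 1-color NimbleGen arrays with 15473 transcripts, each read by 4 probes of 60 nucleotides, and all differences below are Hey RNAi gut minus control EB on the log2 scale.

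Intestinal stem cells of the fly midgut give rise to EBs, which enlarge and mature into ECs, the large polyploid cells that secrete digestive enzymes and absorb nutrients. Notch signaling drives this step, and Hey belongs to the HES-related family of bHLH repressors through which Notch often acts. Hey protein is also abundant in mature ECs, and the study examined whether such cells keep their identity without it.

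In the Hey RNAi guts, MyoIA-Gal4 together with temperature-sensitive Gal80 drove UAS-Hey RNAi in ECs. In the control EBs, Hey-Gal4 drove UAS-mCD8GFP and UAS-GFP, with no RNAi, and the labeled cells were taken from dissociated guts with magnetic beads. Flies of both groups grew at 18 °C and, per the labels, spent 2 days at 29 °C from an age of 2 to 4 days. The methods of the EB purification include extra days at 18 °C, so the EB flies may have been older. Hey-Gal4 is described as active mainly in EBs and only minimally in stem cells, and the purity of the cells differed between preparations. A whole gut also holds stem cells, EBs, enteroendocrine cells, muscle and trachea that the MyoIA driver does not target, and the study saw more cells in such guts. Tissue, driver, purification, RNAi and age thus changed together and cannot be told apart, and in bulk RNA fewer cells of a type and less RNA per cell cannot be told apart either. The groups' defining marker genes, and Hey itself, were not analysed here, because a gene symbol could be paired with only 44 of the 15473 transcript identifiers and with 4 of the 264 genes on the marker and pathway lists.

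The arrays of each group resembled each other more than those of the other group. Across the 15473 transcripts, Pearson's r was 0.990 to 0.991 among the Hey RNAi guts and 0.936 to 0.966 among the control EBs, and 0.853 to 0.898 between a Hey RNAi gut and a control EB. Control EB 2 lay farthest from the guts, at 0.853 to 0.856, while control EB 1 and control EB 3 reached at least 0.891 with every Hey RNAi gut. The EBs also varied more. The median SD over transcripts was 0.16 log2 units in Hey RNAi guts and 0.35 in control EBs, and it was larger in EBs for 78.4% of transcripts.

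A transcript passed the test where limma's p, adjusted by Benjamini-Hochberg across the whole array, was under 0.05 and the difference at least 2-fold. By this rule 4218 of 15473 transcripts (27.3%) differed between Hey RNAi guts and control EBs. Of these, 2001 (12.9%) were higher and 2217 (14.3%) were lower in the guts. The 2 directions were similar in number and unlike in size. Transcripts higher in the guts had a median difference of 2.26, and 1158 of them differed at least 4-fold and 233 at least 16-fold. Transcripts lower in the guts had a median difference of -1.43, and 365 of them differed at least 4-fold and 24 at least 16-fold. The differences that passed ran from -6.31 to 8.03. All 3 guts lay on one side of all 3 EBs for 8879 transcripts (57.4%), including 4213 of the 4218 that passed. The plot of transcript levels shows the cloud of higher transcripts reaching much farther from the diagonal than the cloud of lower ones.

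**Figure D1:**
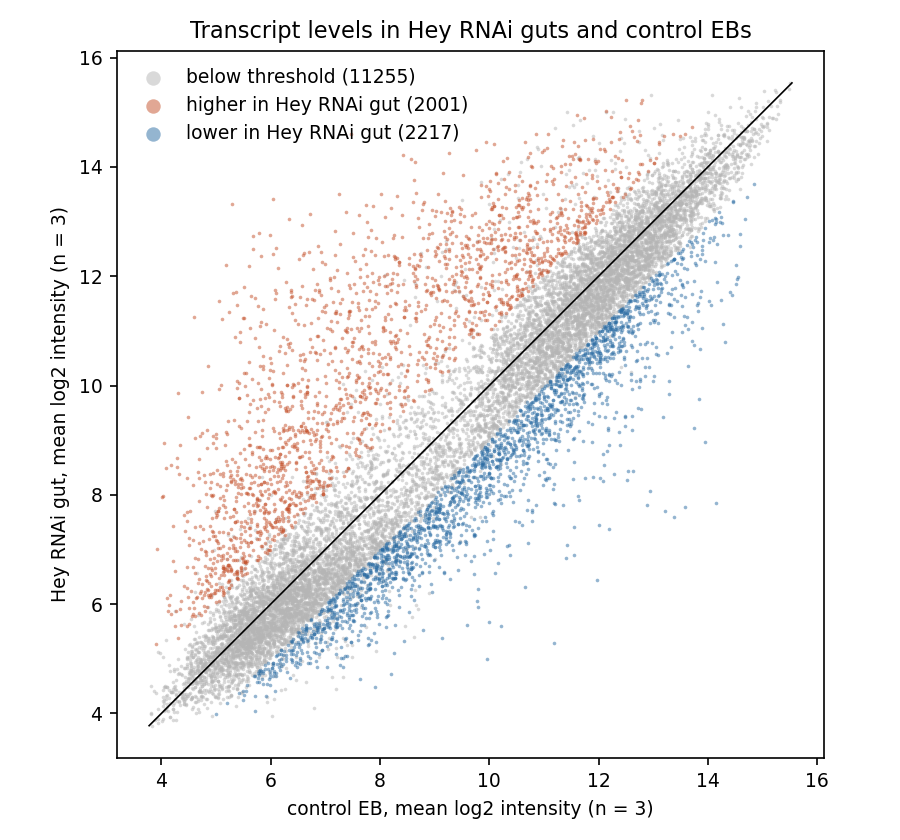
Mean log2 intensity of each transcript in control EBs (x axis, n = 3 arrays) and in Hey RNAi guts (y axis, n = 3 arrays), colored by the test; the line marks equal levels. The 2001 transcripts higher in the guts spread up to 8.03 log2 units above the line, and most of the 2217 lower ones lie close below it, with a median of -1.43.

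A missed threshold does not show likeness, so the 95% confidence interval of each difference was examined as well. The interval lay wholly within 2-fold in either direction for 5429 transcripts (35.1%). This count depended strongly on the scaling, and was 1948 without further normalization and 1987 with arrays centered on their medians. The remaining 5826 transcripts (37.7%) neither passed the test nor had an interval this narrow, and the arrays at hand do not place them in either class. Some of them still had an adjusted p under 0.05. Over all transcripts 2107 had such a p with a difference under 2-fold, including some whose interval lay within 2-fold. The threshold also depended on how the 2-fold limit was used. When the difference was tested against 2-fold itself (limma treat), 1287 transcripts passed, 889 higher and 398 lower. When arrays were centered on their medians in place of quantile normalization, 6899 passed and 23.1% of them were higher, against 47.4% in the main result. That scaling moved the median difference over all transcripts from -0.19 to -0.71, so the balance of both directions rests on the normalization.

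The level of a transcript mattered for both classes. Transcripts were ranked by mean level and divided into 3 equal bands. In the dimmest band 18.7% passed the test and 34.4% had an interval within 2-fold. In the middle band 44.3% passed and 18.0% lay within 2-fold, and in the brightest band 18.7% passed and 52.9% lay within 2-fold. Of the 2001 transcripts higher in the guts, 335 (16.7%) had an EB level in the lowest 10% of all transcripts, and of the 2217 lower ones, 179 (8.07%) had a gut level in the lowest 10%. The size of these differences rests on values near the dim end of the arrays. The brightest 1% of transcripts in each group, 155 transcripts, held 74 in common (47.7%).

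The 44 transcripts with a symbol give the named view of this comparison. They were paired by identifier, 9 directly and 35 through reading frames annotated on the same transcript, and 27 of the latter carry more than 1 coding gene. The level of such a transcript cannot be divided between its genes. The further genes are named below for some of these only. PIG-M, Tim10, ND-MNLL, Ppcdc and vnc, among others, also lie on shared transcripts. Of the 44, 3 were higher and 3 lower in Hey RNAi guts, or 13.6% against 27.3% over all transcripts. The interval lay within 2-fold for 25 (56.8%), against 35.1% over all transcripts. Of the 44, 31 belonged to the brightest band, where 18.7% of transcripts passed and 52.9% lay within 2-fold. Another 8 were in the middle band (44.3% and 18.0%) and 5 in the dimmest (18.7% and 34.4%). Groups did not overlap for 27 (61.4%), against 57.4% over all. A further 10 had an adjusted p under 0.05 with a difference under 2-fold, 4 of them measured higher and 6 lower in the guts. Over all transcripts this held for 2107 of 15473. The median difference of the 44 was -0.04, and that of all transcripts -0.19.

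**Figure D2:**
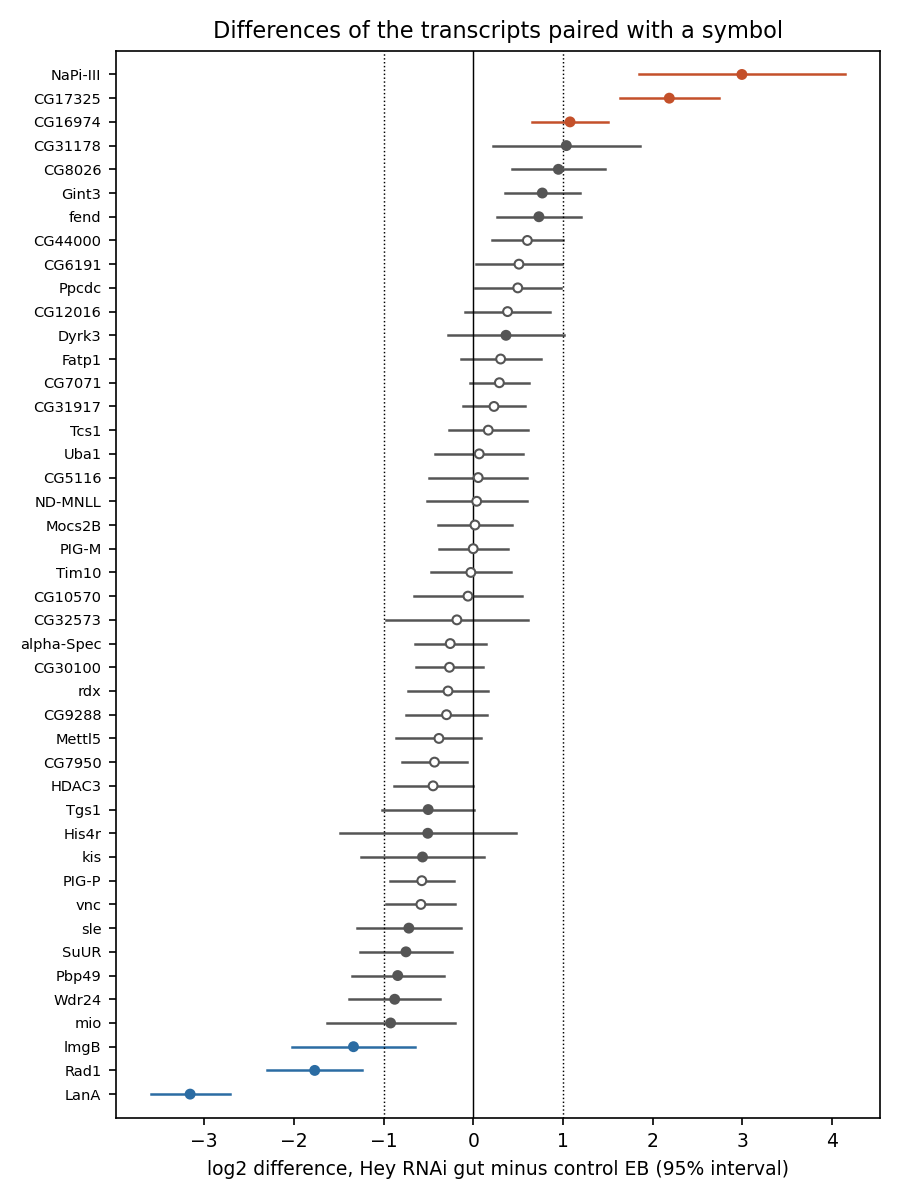
Log2 difference, Hey RNAi gut minus control EB, with its 95% confidence interval for each of the 44 transcripts paired with a symbol (3 arrays per group). Orange and blue mark the 3 higher and 3 lower transcripts, open circles mark the 25 intervals that lie within the dotted 2-fold lines, and NaPi-III at 3.00 and LanA at -3.16 lie at the ends.

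LanA, a laminin alpha chain of the basement membrane on which the midgut epithelium rests, lay farthest from 0 among the 44. Its log2 intensity was 10.83, 11.32 and 11.22 in the Hey RNAi guts and 14.30, 14.34 and 14.20 in the control EBs. All EB arrays thus lay close together and about 3 log2 units above every gut. The difference was -3.16 ± 0.18 (SE, n = 3 per group; limma adjusted p = 0.000129), 8.92-fold lower in the guts. The EB level stood above 98.6% of all transcripts. alpha-Spec, which encodes a spectrin chain of the cell cortex, had overlapping groups and a difference of -0.26, with an interval of -0.65 to 0.14.

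The 44 transcripts were sorted by role with their values known, so the counts by role below describe these few transcripts and nothing wider. Of the 3 assigned to DNA replication and cell division, 2 passed as lower in the guts, where 14.3% of all transcripts did, and the third was measured lower too. In the middle band, to which the 2 belonged by level, 24.6% of transcripts passed as lower. Rad1 encodes a subunit of the 9-1-1 clamp, which signals DNA damage. Its transcript, which also carries Sws1, measured 8.39, 8.18 and 8.33 in the guts and 9.69, 10.40 and 10.11 in the EBs, so that the groups were well apart. The difference was -1.77 ± 0.22 (SE, n = 3 per group; limma adjusted p = 0.00165). The lmg transcript carries lmgA, the Apc11 subunit of the anaphase-promoting complex, and lmgB. It measured 10.00, 9.86 and 9.81 in the guts and 11.83, 11.02 and 10.81 in the EBs. Control EB 1 was the highest, and the groups did not overlap. The difference was -1.34 ± 0.28 (SE, n = 3 per group; limma adjusted p = 0.0115). SuUR restrains replication of heterochromatin in polyploid cells. It measured 12.40, 12.56 and 12.33 in the guts and 13.51, 13.19 and 12.84 in the EBs, without overlap. Its difference of -0.75 ± 0.21 (SE, n = 3 per group) had an adjusted p of 0.0312 (limma) and stayed under 2-fold. Tested against 2-fold itself, neither Rad1 (limma adjusted p = 0.0621) nor lmgB (limma adjusted p = 0.677) passed.

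The largest rise among the 44 belonged to NaPi-III, a sodium-dependent phosphate transporter. It measured 9.63, 9.86 and 10.17 in the guts and 7.06, 7.77 and 5.85 in the EBs. The guts lay above every EB, and the EBs themselves spread over nearly 2 log2 units. The difference was 3.00 ± 0.48 (SE, n = 3 per group; limma adjusted p = 0.0041). Of the 8 paired transcripts assigned to transport and metabolism, NaPi-III was the one that passed, and the other 7 had an interval within 2-fold. Over all transcripts 27.3% passed and 35.1% lay within 2-fold, or 18.7% and 52.9% in the brightest band. In the middle band, which held NaPi-III, the shares were 44.3% and 18.0%. Fatp1, a fatty acid transport protein, differed by 0.31 (interval -0.14 to 0.75). Tim10, a chaperone of the mitochondrial intermembrane space, differed by -0.03 (interval -0.47 to 0.42), and ND-MNLL, a subunit of respiratory complex I, by 0.04 (interval -0.52 to 0.59). The transcript of Mocs2A and Mocs2B, both subunits of molybdopterin synthase, differed by 0.02 (interval -0.39 to 0.43). PIG-M, a mannosyltransferase of GPI anchor synthesis, had an interval of -0.39 to 0.38. Ppcdc, an enzyme of coenzyme A synthesis, and CG12016, whose transcript also carries Dpm2, were measured 0.50 and 0.38 higher in the guts.

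**Figure D3:**
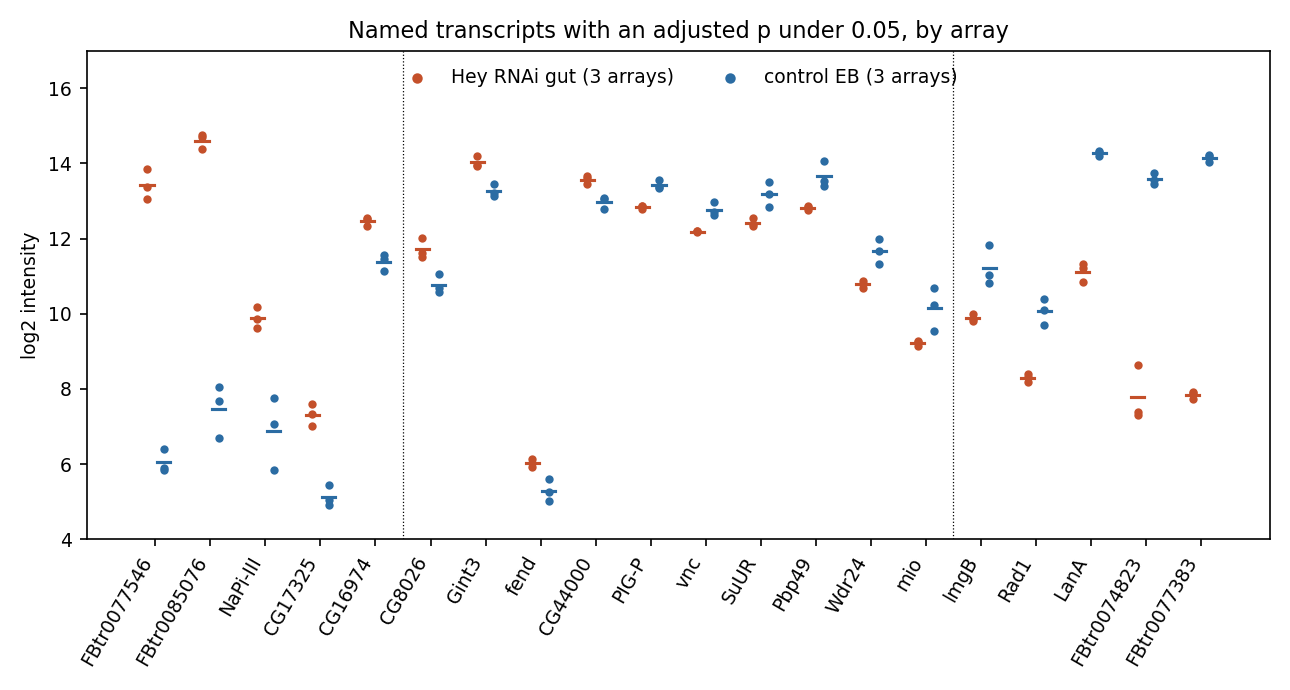
Log2 intensity of the named transcripts with an adjusted p under 0.05 in each array (points) and group mean (lines), 3 Hey RNAi guts in orange and 3 control EBs in blue. Transcripts left of the first dotted line were higher and those right of the second were lower in Hey RNAi guts; those between differed by less than 2-fold, and no transcript shown has overlapping groups.

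None of the 8 transcripts assigned to RNA synthesis and processing passed, against 27.3% over all transcripts, and 5 had an interval within 2-fold, against 35.1%. These shares were 18.7% and 52.9% in the brightest band, and 44.3% and 18.0% in the middle band. The transcript of Pbp49, a subunit of the complex that starts snRNA transcription, measured 12.83, 12.86 and 12.76 in the guts and 14.06, 13.52 and 13.39 in the EBs. These groups were apart, with a difference of -0.84 ± 0.21 (SE, n = 3 per group; limma adjusted p = 0.0219) that remained under 2-fold. sle, which encodes a nucleolar protein, differed by -0.72 ± 0.24 (SE, n = 3 per group) and missed the adjusted p (limma, 0.0533), with no overlap between 11.65 to 11.78 in the guts and 12.04 to 12.90 in the EBs. PIG-P, a gene of GPI anchor synthesis, was counted here because it shares its transcript with Tcs6, whose product belongs to the KEOPS complex of tRNA modification. The transcript differed by -0.57 (limma adjusted p = 0.0233) within an interval of -0.93 to -0.22. Within 2-fold lay also the transcripts of Tcs1 and Polr3K, a subunit of RNA polymerase III (0.17), of CG31917 and the TFIIH subunit Tfb5 (0.23), of the methyltransferase Mettl5 (-0.38), and of CG7950 and the RNase P protein Rpp14a (-0.43). Tgs1, the enzyme that trimethylates snRNA caps, shares its transcript with moi. The transcript differed by -0.50, and its interval from -1.01 to 0.01 just exceeded 2-fold.

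The 3 transcripts assigned to chromatin did not pass, where 27.3% of all transcripts did. The share was 18.7% in the brightest band and 44.3% in the middle band. kis, a chromodomain remodeler, differed by -0.57 (interval -1.25 to 0.12), with control EB 1 at 12.33 among the guts (12.22 to 12.49) and the other EBs at 13.23 and 13.27. HDAC3, a histone deacetylase, differed by -0.45 within an interval of -0.89 to -0.01. His4r, a histone H4 gene expressed outside of S phase as well, measured 7.43 to 7.47 in the guts and 7.16, 7.85 and 8.85 in the EBs, so the EBs spanned both sides of the guts. Its interval of -1.49 to 0.48 does not place it.

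Among the 6 transcripts for protein modification and growth signaling, none passed and 3 lay within 2-fold, against 27.3% and 35.1% over all transcripts. In the brightest band 18.7% passed and 52.9% lay within 2-fold, and in the middle band 44.3% and 18.0%. Wdr24 and mio encode subunits of GATOR2, a complex that activates TORC1 signaling when amino acids are plentiful. Wdr24 measured 10.68, 10.88 and 10.79 in the guts and 11.66, 12.00 and 11.32 in the EBs. mio measured 9.24, 9.29 and 9.14 in the guts and 9.53, 10.68 and 10.23 in the EBs. Both were measured lower in every gut than in every EB, by -0.88 ± 0.21 (SE, n = 3 per group; limma adjusted p = 0.0182) and by -0.92 ± 0.30 (SE, n = 3 per group; limma adjusted p = 0.0473), and both stayed under 2-fold. Leaving out a single array moved both differences either way. Without control EB 3 the difference of Wdr24 was -1.05, and without control EB 1 that of mio was -1.25, and each passed the threshold. At the other end the differences were -0.70 and -0.61. The adjusted p (limma) with 1 array left out reached 0.0687 for Wdr24 and 0.128 for mio. Uba1, the ubiquitin-activating enzyme, differed by 0.07 (interval -0.42 to 0.56), rdx, an adaptor of Cullin-3 ubiquitin ligases, by -0.28, and vnc, the catalytic subunit of an N-terminal acetyltransferase, by -0.58, all within 2-fold. The kinase gene Dyrk3 differed by 0.37, and its interval of -0.28 to 1.01 just exceeded 2-fold.

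The remaining 14 paired transcripts are named without a role. Of these, 2 were higher in the guts, where 12.9% of all transcripts were. CG17325 measured 7.34, 7.01 and 7.61 in the guts and 5.05, 5.44 and 4.91 in the EBs. The difference was 2.19 ± 0.23 (SE, n = 3 per group; limma adjusted p = 0.000913), and only 5.21% of transcripts were dimmer in EBs. CG16974 measured 12.55, 12.51 and 12.34 in the guts and 11.14, 11.55 and 11.47 in the EBs, a difference of 1.08 ± 0.18 (SE, n = 3 per group; limma adjusted p = 0.00451) that just exceeded 2-fold. It fell short of 2-fold without control EB 1 (0.94) and with arrays centered on their medians (0.75), and did not pass when tested against 2-fold itself. CG31178 differed by 1.04 with an adjusted p at the limit (limma, 0.050), and by 1.42 without control EB 2, where it passed. CG8026 differed by 0.95, and passed without Hey RNAi gut 1 (1.06), without Hey RNAi gut 3 (1.01) or without control EB 3 (1.10). With other arrays left out the differences fell as low as 0.82 for CG31178 and 0.80 for CG8026. Their adjusted p (limma) reached 0.149 and 0.0584. Gint3, fend and CG44000 had adjusted p-values under 0.05 (limma, 0.0141, 0.0255 and 0.027) at differences of 0.77, 0.73 and 0.60. For fend only 6.87% of transcripts were dimmer in EBs, so its difference rests on values near the dim end. The interval of CG44000, 0.211 to 0.996, lay within 2-fold. So did those of the other 7, whose differences ran from -0.30 for CG9288 to 0.51 for CG6191. Thus 8 of the 14 lay within 2-fold, against 35.1% over all transcripts.

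Of the transcripts without a symbol, those with the largest rises and falls are given whose lower group stood above the lowest 10% of levels. Rises reached 8.03 without that limit. FBtr0077546 measured 13.84, 13.05 and 13.37 in the guts and 5.85, 6.41 and 5.89 in the EBs, 166-fold higher in the guts (7.37 ± 0.27 SE, n = 3 per group; limma adjusted p = 4.08e-05). FBtr0085076 measured 14.70, 14.76 and 14.37 in the guts and 8.06, 6.68 and 7.67 in the EBs, a difference of 7.14. It stood above 99.4% of transcripts in the guts and 35.8% in the EBs. FBtr0077383 measured 7.90, 7.73 and 7.91 in the guts and 14.03, 14.21 and 14.23 in the EBs, 79.1-fold lower in the guts (-6.31 ± 0.15 SE, n = 3 per group; limma adjusted p = 4.08e-05). FBtr0074823 measured 7.32, 7.40 and 8.64 in the guts and 13.75, 13.45 and 13.56 in the EBs, a difference of -5.80. Hey RNAi gut 3 was higher than the other guts for this transcript and still far below every EB.

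Control guts, which expressed UAS-GFP under the MyoIA driver, were set beside the same EBs to show how the Hey RNAi gut compares with a gut that keeps Hey. Against control EBs, 4605 transcripts (29.8%) passed in control guts, 2118 (13.7%) higher and 2487 (16.1%) lower, and 4888 (31.6%) had an interval within 2-fold. Both counts share the EB arrays with those above, and their difference was not tested. Each gut array was then scored by its mean correlation with the 3 control EBs, on a scale common to all 12 arrays. Hey RNAi guts scored 0.884, 0.879 and 0.878 and control guts 0.862, 0.862 and 0.870, so that every Hey RNAi gut lay closer to the EBs. The means were 0.880 ± 0.0029 and 0.865 ± 0.0043 (SD, n = 3), and the two-sided exact permutation test gave p = 0.1, the smallest value that 3 arrays against 3 allow. By mean intensity, same-numbered control and Hey RNAi guts lay in the same set of arrays, and within these 3 sets the Hey RNAi gut scored higher by 0.0212, 0.0170 and 0.00846. An exact sign-flip test over the sets, added after seeing the data, gave p = 0.25, the smallest that 3 pairs allow. Without control EB 2 the difference between the means was 0.00983 in place of 0.0155. The share of transcripts more than 2-fold from the EB mean was 30.4% to 32.9% in Hey RNAi guts and 33.7% to 34.6% in control guts. The group mean of Hey RNAi guts correlated at r = 0.897 with control EBs and at 0.976 with control guts. From control EBs 31.1% of transcripts were more than 2-fold away, and from control guts 8.05%.

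**Figure D4:**
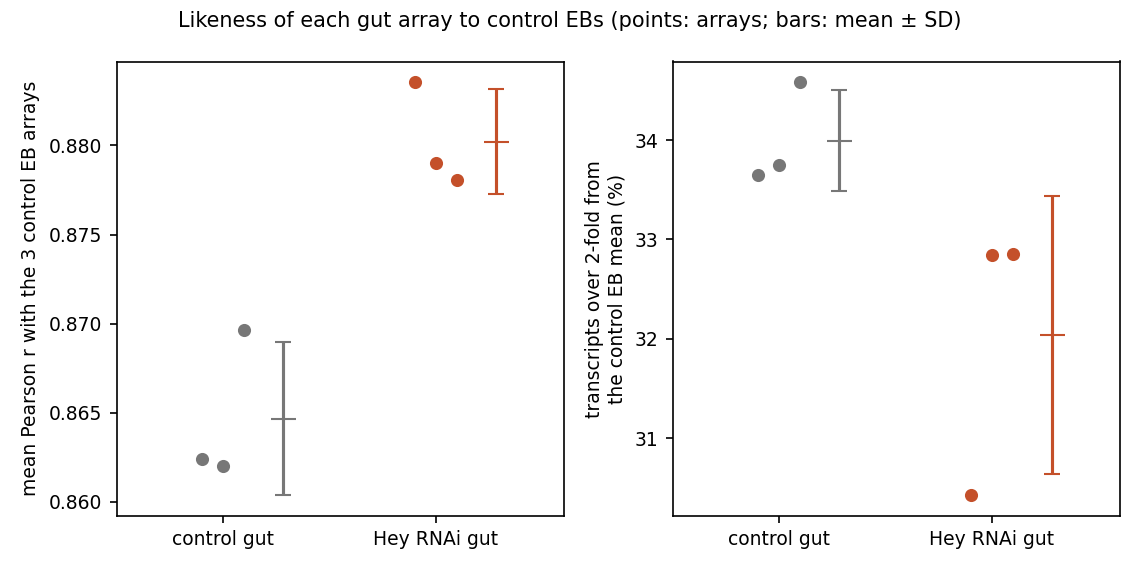
Likeness of each gut array to the control EBs, as the mean Pearson r with the 3 control EB arrays (left) and the percent of transcripts more than 2-fold from the control EB mean (right), with group means ± SD (n = 3). Hey RNAi guts lie at 0.878 to 0.884 and control guts at 0.862 to 0.870; the axes do not start at 0.

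For single transcripts, the place of the Hey RNAi gut between control gut and EB varied. On the common scale sle averaged 10.67 ± 0.11 in control guts, 11.70 in Hey RNAi guts and 12.40 ± 0.42 in control EBs (SD, n = 3). The transcript of Tcs1 and Polr3K averaged 9.46 ± 0.14 in control guts, 10.68 in Hey RNAi guts and 10.51 ± 0.17 in control EBs. Against control EBs its difference was -1.11 ± 0.18 (SE, n = 3 per group; limma adjusted p = 0.00406) in control guts and 0.17 in Hey RNAi guts. Uba1 averaged 13.02, 13.87 and 13.80 in these groups. In all of these the Hey RNAi gut lay nearer to the EBs than the control gut did. LanA averaged 11.42, 11.10 and 14.22, and NaPi-III 10.18, 9.91 and 6.97, so that Hey RNAi guts remained with control guts. FBtr0077383 averaged 10.18 ± 0.14 in control guts, 7.94 in Hey RNAi guts and 14.09 ± 0.11 in control EBs, and here the Hey RNAi gut lay farther from the EBs. These transcripts were picked after their values were seen, and the difference between both kinds of gut was not tested here.

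The other 6 arrays of the series, control guts and EBs with Hey RNAi (Hey-Gal4 driving UAS-Hey RNAi), share no array with the main comparison. They give a second difference between gut and EB with the genotypes exchanged. The layout by sets of like mean intensity was largely repeated, since the guts of both comparisons lay in the same 3 sets and EB 1 and EB 2 of both in the same 2 sets. What this adds to the overlap below was not tested. In these, 4922 transcripts (31.8%) passed, 2392 (15.5%) higher and 2530 (16.4%) lower in guts. Of the transcripts higher in Hey RNAi guts, 1222 were also higher in control guts than in Hey RNAi EBs, which is 61.1% of the 2001 and 51.1% of the 2392. Of the lower ones, 892 were lower in both, 40.2% of the 2217 and 35.3% of the 2530. Opposite calls numbered 89 and 58. The overlap depended on size. Of the transcripts higher by 2 to 4-fold 45.4% were called in the same direction, of those higher by 4 to 16-fold 70.6% and of those higher by more than 16-fold 79.8%. For the lower transcripts these shares were 37.5%, 53.7% and 58.3%. Across all transcripts the 2 differences correlated at r = 0.626, a description over transcripts that are not independent replicates.

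**Figure D5:**
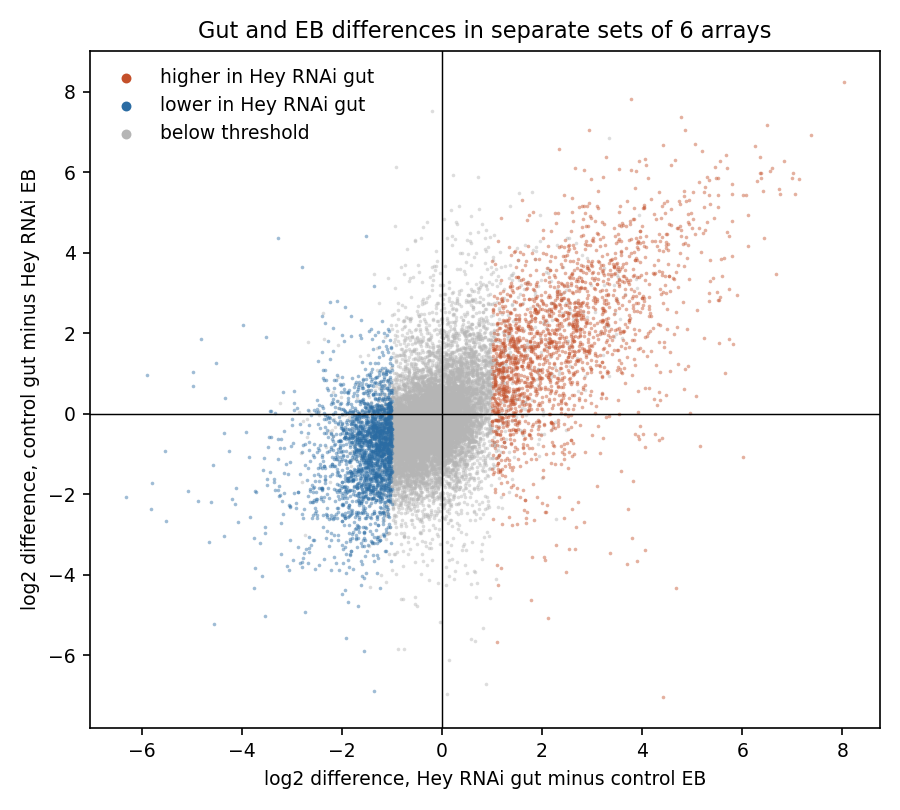
Log2 difference of each transcript between Hey RNAi gut and control EB (x axis) and between control gut and Hey RNAi EB (y axis), from separate sets of 6 arrays, colored by the test of the first. Transcripts higher in Hey RNAi guts lie mostly above 0 on the y axis (median 1.78), while the lower ones lie nearer to 0 (median -0.88).

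Each of the 6 symbols that passed in the main comparison also passed in these other arrays, in the same direction. Over all transcripts, 2114 of the 4218 that passed did so. Control guts differed from Hey RNAi EBs by -1.47 for LanA, -1.45 for Rad1, -1.57 for lmgB, 3.67 for NaPi-III, 2.54 for CG17325 and 1.68 for CG16974. Other paired transcripts passed only in these other arrays. Higher in control guts were Fatp1 (2.81), CG31178 (2.01) and CG6191 (1.65). Lower were sle (-2.16), Tcs1 (-1.80), CG32573 (-1.71), CG31917 (-1.38), CG30100 (-1.20), PIG-P (-1.12) and CG7950 (-1.02). For LanA, Hey RNAi EBs averaged 12.92 ± 0.18 and control EBs 14.22 ± 0.07 on the common scale (SD, n = 3), and the difference between both comparisons was not tested. The transcripts without a symbol passed in the same direction as well, FBtr0077546 at 6.91, FBtr0077383 at -2.07 and FBtr0074823 at -2.38. FBtr0085076 passed at 5.84 ± 1.34 (SE, n = 3 per group), with Hey RNAi EBs spread from 6.35 to 11.87. The GATOR2 subunits passed in neither set of arrays. Wdr24 differed by 0.60 and mio by 0.02 between control guts and Hey RNAi EBs, against -0.88 and -0.92 in the main comparison.

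By their mean intensity, the 12 arrays fell into 5 sets, and Hey RNAi gut 1 and control EB 3 shared one. Between these 2 arrays 30.3% of transcripts were 2-fold apart, against 32.8% to 37.6% in the other 8 pairs of a Hey RNAi gut and a control EB. All 4218 transcripts that passed had the same sign in this pair. The pair is itself part of the comparison, and groups did not overlap for 4213 of the 4218. The sign in the pair could thus hardly differ and is no separate check. LanA differed by -3.37, Rad1 by -1.72 and NaPi-III by 3.79 between the 2 arrays. With the set as a block in a fit of all 12 arrays 3383 transcripts passed, and lmgB, at -0.98, no longer reached 2-fold.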

How the data were processed

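RNA from independent crosses was amplified, Cy3-labeled and hybridised. The authors extracted the data in NimbleScan and used ArrayStar for normalization and tests. The submitters' processing notes list RMA. In the deposited matrix, there is 1 linear intensity per transcript and array, and whether it precedes normalization is not given in the sources used here. The authors' workbooks hold their own folds, moderated p-values and t values, with group means for guts, and were not used.

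Intensities of the 6 arrays were log2 transformed, quantile normalized and fitted alone in limma 3.58.1 (R 4.3.3; lmFit, eBayes), as were both other comparisons. No transcript was filtered out, and 6 arrays limit the precision. The fit was also run on simulated data with few changed transcripts, equal in both directions and without array sets. That run does not test the fit or the normalization for data like these.

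Symbols came from RefSeq synonyms (Release 6 plus ISO1 MT) that hold the identifier. The rule was to name the paired transcripts on the lists, or every paired transcript if only few could be paired, as with the 9 direct pairings. It added the 2 largest non-overlapping rises and falls without a symbol whose lower group stood above the lowest 10%. The 35 pairings through reading frames were added later. Naming all 44 after that departs from the rule, since 4 listed symbols were paired. Roles were assigned with values known. The comparison and lists were chosen with earlier results of these data known. Alternatives covered normalization, a level filter, the prior, array weights, treat, the replicate number, the array set and each array left out.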

Additional observations from a re-analysis of the deposited data

How the results depend on the processing

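Quantile normalization gives guts and EBs 1 distribution and can hide a change common to most transcripts, and the arrays hold 3 samples per group. Of the 4218 transcripts past the threshold, 3749 remained with arrays centered on their medians (6899 in all, 1592 higher and 5307 lower) and 1287 when tested against 2-fold itself (889 higher, 398 lower). The number within 2-fold was 5429, and was 1948 without further normalization and 1987 with median centering. Every other alternative to these counts stayed within 1.5 times the main value. No call was opposite to the main result under any alternative. Leaving out 1 array gave 3345 to 4503 calls, 1635 to 2155 higher, 1710 to 2421 lower and 3832 to 5678 within 2-fold. It gave 4132 to 5298 calls for control guts against Hey RNAi EBs, 3916 to 4968 for control guts against control EBs, and 1772 to 2292 calls shared by the comparisons without common arrays, against 2114. The difference in mean correlation with EBs ran from 0.00983 to 0.0203. Of 811 values of single named transcripts under alternatives, 6 lost and 17 gained the threshold, and 28 values of 13 transcripts that passed in neither fit changed sign. The deviations of same-numbered Hey RNAi guts and control EBs from their group means correlated at r = 0.0378, 0.0444 and -0.0861. Pairs with unlike numbers ran from -0.103 to 0.0968, the highest for Hey RNAi gut 1 and control EB 3. A pairing by number was not tested, and 3 arrays per group could hardly show one. With a replicate block 4137 passed. The set block was chosen after seeing the data. The causes were not tested.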
